A study of Mus musculus with 36 samples.

Results

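The alternative activation effector genes were 9 genes that macrophages are known to use when they are polarized by Il-4, taken by name from the 49568 gene names of the counts. They were the C-type lectins Mgl2, Clec10a and Mrc1, the elastase Mmp12, the chemokines Ccl17, Ccl22 and Ccl24, and the secreted proteins Chil3 and Retnla. RAW264.7 cells, a transformed mouse macrophage line, were cultured for 72 h in an IFNγ series and an Il-4 series, each with 3 groups of 6 libraries. The peptides were 65–79*SE, from the HLA-DRB1*0401 chain with the shared epitope linked to rheumatoid arthritis, and 65–79*PE, from the HLA-DRB1*0402 chain with the protective epitope. The SE and PE groups were given peptide at 100 µg/ml with IFNγ or Il-4 at 5 ng/ml. The PBS group carried the name of the same cytokine in its title but only PBS as its treatment, so in any contrast with PBS the cytokine and the peptide cannot be told apart. The contrast of SE with PE compared the peptides under the same cytokine label. The whole series was 1 cell line, and replicates 1–3 and 4–6 of every group carried different naming schemes, so both sets are shown apart.

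Alternative activation is the state that Il-4 brings about in macrophages through its receptor and the factor Stat6. Mgl2, Clec10a and Mrc1 bind sugars on glycoproteins and serve uptake, Mmp12 cleaves elastin, and Ccl17, Ccl22 and Ccl24 draw T cells and eosinophils. Chil3 (Ym1) and Retnla (Fizz1) are among the most used markers of the state in mouse tissue.

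Stat6 is known to bind TTC and GAA with 4 bases between them, and other Stat factors the same ends with 3 bases between them. Both motifs are palindromes, so a search of 1 strand covers the other. The 250 bases before the start of 4 members are given below from RefSeq (GRCm38.p6) because they set members that were induced here beside members that were near 0. Capitals mark matches to either motif, and a gene with no capitals has neither in this window.
Mgl2, chr11:70130107-70130356, plus strand: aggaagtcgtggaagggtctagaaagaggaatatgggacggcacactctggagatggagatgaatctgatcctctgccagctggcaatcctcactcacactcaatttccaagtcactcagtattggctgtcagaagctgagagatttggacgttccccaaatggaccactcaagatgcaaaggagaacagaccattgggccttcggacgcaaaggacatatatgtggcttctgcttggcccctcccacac
Mrc1, chr2:14229164-14229413, plus strand: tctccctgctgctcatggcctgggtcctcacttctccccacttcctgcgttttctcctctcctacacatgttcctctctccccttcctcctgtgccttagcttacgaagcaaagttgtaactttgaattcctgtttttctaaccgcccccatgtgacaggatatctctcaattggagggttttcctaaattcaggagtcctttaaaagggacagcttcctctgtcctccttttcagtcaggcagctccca
Ccl17, chr8:94810203-94810452, plus strand: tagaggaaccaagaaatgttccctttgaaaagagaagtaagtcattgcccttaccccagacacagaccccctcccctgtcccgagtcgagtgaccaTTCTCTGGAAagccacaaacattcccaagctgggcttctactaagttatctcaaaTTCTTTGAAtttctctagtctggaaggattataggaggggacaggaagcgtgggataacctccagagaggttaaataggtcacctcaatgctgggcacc
Retnla, chr16:48842359-48842608, plus strand: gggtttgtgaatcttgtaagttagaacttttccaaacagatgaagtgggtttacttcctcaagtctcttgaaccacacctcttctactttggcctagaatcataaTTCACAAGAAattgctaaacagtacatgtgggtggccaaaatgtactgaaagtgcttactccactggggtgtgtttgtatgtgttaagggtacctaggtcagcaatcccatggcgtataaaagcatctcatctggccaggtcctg

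RefSeq promoters were matched for 7 of the 9 members, all but Clec10a and Ccl24. The longer motif stood in the windows of Ccl17 and Retnla, with its first base at -154 and -145 from the start. The shorter stood in those of Ccl17 and Chil3, at -99 and -172. Neither was found in the windows of Mgl2, Mrc1, Ccl22 or either start of Mmp12. Of all 32851 promoters of this length, 5.85% held the longer and 7.02% the shorter motif. These matches describe letters and are not shown to be sites.

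Libraries held 20.67 to 63.16 M counts in the IFNγ series and 17.05 to 30.64 M in the Il-4 series, so that 3 counts, used here as the floor, were 0.0542 to 0.173 CPM (the TMM-scaled count rate used throughout). All 9 macrophage markers passed the floor in some library, Mertk with at most 0.416 CPM, and summed to 3412 to 10906 CPM. Of 5 dendritic cell markers 3 passed it (Flt3 and Cd209a did not), with a sum of 4.75 to 23.3 CPM in the IFNγ and 3.86 to 89.8 CPM in the Il-4 series. Markers of fibroblasts summed to at most 1.24 CPM in any library and those of B cells to 0.293 CPM. Those of T cells, of epithelial cells and of a joint list for eosinophils and alveolar macrophages each summed to at most 0.166 CPM. The mean log2 CPM of 24 IFNγ response genes was 0.981 ± 0.1002 (SD, n = 3) in PBS replicates 4–6 and 6.06 ± 0.0763 in PE replicates 4–6 of the IFNγ series. It was 0.786 ± 0.194 in the libraries labelled SE replicates 4–6, against 5.92 ± 0.0769 in SE replicates 1–3. These 3 libraries went against their label, and each IFNγ result is given with them (all replicates, or 4–6) and without them (replicates 1–3). The mean log2 CPM of 18 Il-4 response genes outside the members was 0.0796 ± 0.153 (n = 6) in PBS, 2.02 ± 0.249 in SE and 1.92 ± 0.301 in PE of the Il-4 series. Protein-coding genes took 85.1% to 85.7% of counts in replicates 1–3 and 62.1% to 69.8% in 4–6 of the IFNγ series, and 95.4% to 97.5% and 78.6% to 87.4% in the Il-4 series. Histone genes summed to 54.0 to 163.5 CPM in replicates 1–3 and 2601 to 14569 CPM in 4–6, and their part in the differences between sets was not tested.

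With Il-4 and either peptide, 4 of the 9 members were far above PBS: Mgl2, Mmp12, Mrc1 and, from a higher start, Clec10a. The other 5 members did not pass the low count filter of the Il-4 series. Mgl2 (macrophage galactose lectin 2, on chromosome 11) showed the widest step. In bulk RNA, fewer cells expressing a gene and less RNA per cell cannot be told apart. In PBS it was 0.281, 0.198 and 0.370 CPM in replicates 1–3 and 0.110, 0 and 0.248 CPM in 4–6, the last 3 from 2, 0 and 5 counts. With SE it was 63.9, 47.8 and 51.3 CPM in replicates 1–3 and 22.2, 26.9 and 31.1 CPM in 4–6. With PE it was 77.6, 60.3 and 65.2 CPM and 44.5, 36.1 and 42.7 CPM. No peptide library came near a PBS library, and within each peptide every library of 1–3 lay above every library of 4–6. Its log2 fold change was 7.58 (SE 0.22) for SE against PBS and 8.04 (SE 0.22) for PE against PBS, with adjusted p of 5.32e-15 and 1.64e-15 by edgeR's quasi-likelihood test. Because PBS held so few reads, the ratio of summed counts had wide counting intervals: 187 (95% interval 123 to 298) for SE and 234 (155 to 374) for PE in replicates 1–3, and 217 (105 to 539) and 338 (164 to 842) in 4–6.

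**Figure D1:**
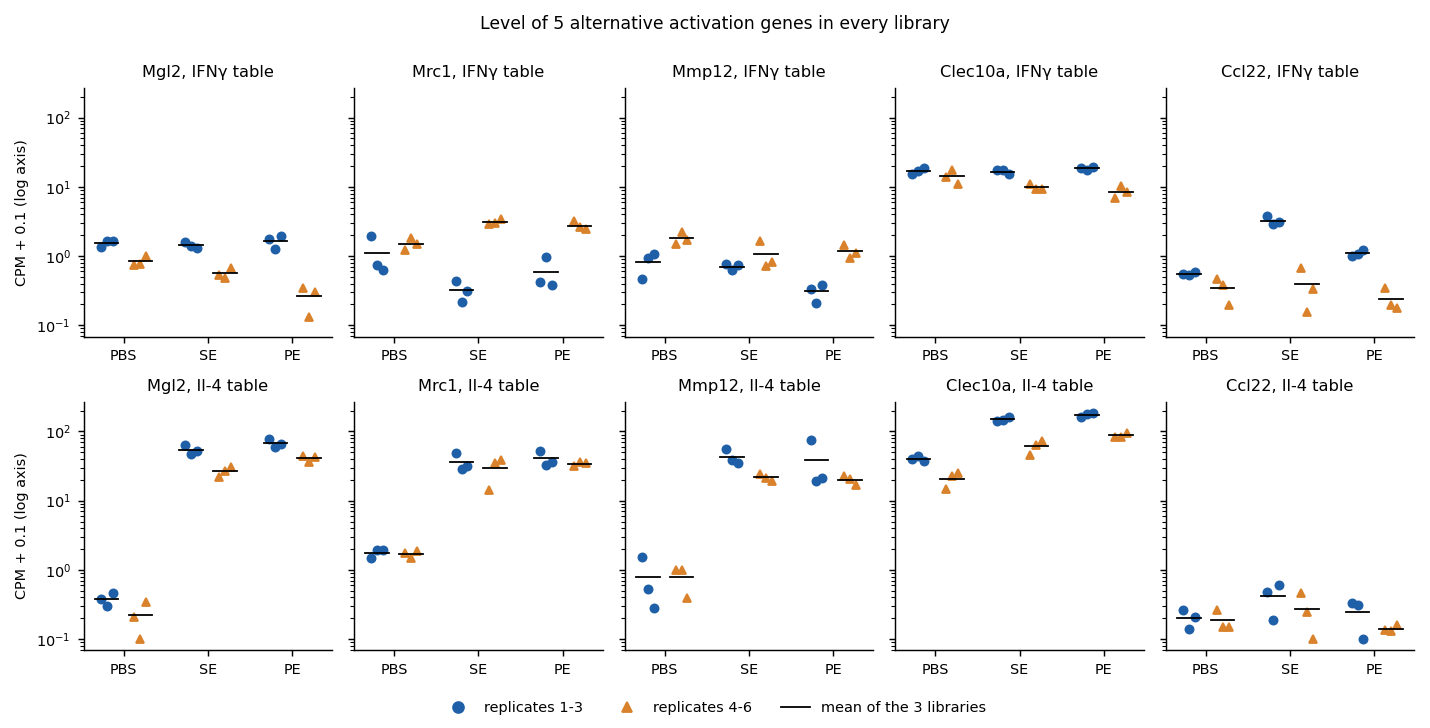
Each panel plots CPM plus 0.1 on a log axis in every library of 1 gene and 1 table, by group (PBS, SE, PE). Circles are replicates 1–3, triangles replicates 4–6, and bars the mean of 3 libraries. In the Il-4 table Mgl2 moved from at most 0.370 CPM in PBS to at least 22.2 CPM with peptide, and in the IFNγ table its highest library was 1.84 CPM.

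Mrc1, the mannose receptor CD206 on chromosome 2, started higher and rose less. Its PBS libraries were 1.36, 1.86 and 1.81 CPM in replicates 1–3 and 1.65, 1.39 and 1.79 CPM in 4–6. With SE they were 48.0, 28.3 and 31.5 CPM and then 14.3, 34.7 and 38.5 CPM. With PE they were 53.0, 32.9 and 36.5 CPM and then 31.6, 36.3 and 34.7 CPM. PBS and peptide libraries did not overlap, and SE replicate 4 was the lowest of the peptide libraries. Its log2 fold changes were 4.30 (SE 0.23, adjusted p = 2.42e-10) for SE and 4.51 (SE 0.23, adjusted p = 1.08e-10) for PE. Unlike Mgl2 and Clec10a, its PBS level was alike in both sets, at 1.68 ± 0.275 and 1.61 ± 0.199 CPM (n = 3 each).

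Mmp12, macrophage metalloelastase on chromosome 9, rose in every peptide library, with 1 far above the rest. PBS libraries ran from 0.185 to 1.44 CPM with a median of 0.659 CPM. With SE it was 55.0, 38.3 and 35.3 CPM in replicates 1–3 and 24.3, 21.4 and 19.5 CPM in 4–6. With PE it was 75.6, 19.3 and 21.1 CPM and then 22.8, 20.5 and 16.7 CPM, so replicate 1 stood alone while the other 5 lay within 16.7 to 22.8 CPM. All peptide libraries were above all PBS libraries. On the log2 scale the difference was 5.55 (SE 0.42, adjusted p = 4.48e-08) for SE and 5.42 (SE 0.42, adjusted p = 5.05e-08) for PE.

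Clec10a, the lectin Mgl1 and the neighbour of Mgl2 at a distance of 18.6 kb on chromosome 11, was the member with the highest CPM in every group. In PBS it was 40.1, 44.0 and 37.2 CPM in replicates 1–3 and 14.8, 22.6 and 24.9 CPM in 4–6. With SE it was 140.1, 145.9 and 161.4 CPM and then 46.3, 63.7 and 72.9 CPM. With PE it was 160.0, 181.1 and 185.4 CPM and then 84.5, 82.4 and 96.0 CPM. Within each set the peptide libraries were all above PBS, and replicates 4–6 were lower than 1–3 in every group. Against PBS the log2 fold change was 1.72 (SE 0.12, adjusted p = 2.11e-08) for SE and 2.10 (SE 0.12, adjusted p = 9.40e-10) for PE.

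Mgl2 and Clec10a are similar copies, and reads that align to both would not have been counted, so their levels carry that limit. Per kilobase of exon, Mgl2 stood at 0.00897 ± 0.00523 of Clec10a in PBS, 0.561 ± 0.0927 with SE and 0.595 ± 0.104 with PE (n = 6 each). In the IFNγ series PBS gave 0.0979 ± 0.0312. The pair was far apart in PBS and much closer with Il-4 and peptide, where the ratio ran from 0.44 to 0.73.

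These 4 calls held in both sets fitted alone. In replicates 1–3 the log2 fold changes of Mgl2, Mrc1, Mmp12 and Clec10a were 7.60, 4.46, 6.02 and 1.93 for SE, and 7.92, 4.64, 5.88 and 2.17 for PE. In replicates 4–6 they were 7.74, 4.17, 4.97 and 1.55 for SE, and 8.35, 4.40, 4.85 and 2.07 for PE. None of these differences between the sets passed the test (adjusted p from 0.396 to 0.977 by edgeR), where 4.83% of all genes did for SE and 0.00741% for PE. Of all genes tested, 1.88% were called higher for SE and 2.16% for PE over all replicates, 3.07% and 2.31% in 1–3, and 0.779% and 1.06% in 4–6. Since a member could pass the low count filter by its peptide libraries alone, the count of 4 is a description. Without replicate 5, the set 4–6 lost the calls of Mrc1 (adjusted p = 0.0876 for SE and 0.0765 for PE) and Clec10a (0.422 and 0.160), and without replicate 2 the set 1–3 lost Mmp12 for SE (0.0572).

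The contrast of SE with PE asked whether the level of these genes differed between the peptides under the same Il-4 label. None of the 4 members was called over all replicates or in either set, by edgeR or DESeq2. Among all 13494 genes, 0.00741% were called over all replicates, which was the single gene Rnase4, and 0% in either set. Mgl2 was lower with SE than with PE by a log2 value of -0.47 (95% interval -0.73 to -0.20, adjusted p = 0.361, edgeR). It was -0.32 in replicates 1–3, where the groups overlapped but SE was lower than the PE library of the same number in 3 of 3 pairs, and -0.62 in 4–6, where all SE libraries were below all PE libraries. Clec10a gave -0.37 (-0.62 to -0.13, adjusted p = 0.428, edgeR), with -0.24 and -0.52 in the sets, SE lower in 3 of 3 pairs of 1–3 and the same split of libraries in 4–6. The share of all genes with such pairs or such a split is not given here. Members were measured in the same libraries, so their pairs and splits are a description and not separate evidence. Mgl2 and Clec10a had an unadjusted p under 0.05 over all replicates, as did 8.3% of all genes. They also had it in each set, as did 4.51% and 7.83%, but the sets are parts of the same libraries. Among the alternative fits over all replicates (edgeR or DESeq2), adjusted p ran from 0.00691 to 0.999965 for Mgl2 and from 0.0476 to 0.999965 for Clec10a. In the edgeR fits that left out a replicate it ran from 0.353 to 0.856 and from 0.458 to 0.892. The log2 values of these fits, -0.51 to -0.37 and -0.41 to -0.29, stayed short of the fold threshold, so neither was called. Mrc1, also lower with SE in 3 of 3 pairs of 1–3, gave -0.21 (-0.59 to 0.18) and Mmp12 0.13 (-0.48 to 0.75), with adjusted p of 0.832 and 0.950 by edgeR. The intervals of Mgl2 and Clec10a, which are not adjusted for the number of genes, lie below 0. They reach a 1.66-fold lower level with SE for Mgl2 and 1.54-fold for Clec10a, so a difference of up to that size is not excluded. Mmp12 depended on replicate 1: without replicate 1 of every group the set 1–3 gave 0.87 (adjusted p = 0.0397, edgeR), and that call is absent with it. That fit also lacked PBS and SE replicate 1, so the part of PE replicate 1 alone was not tested.

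**Figure D2:**
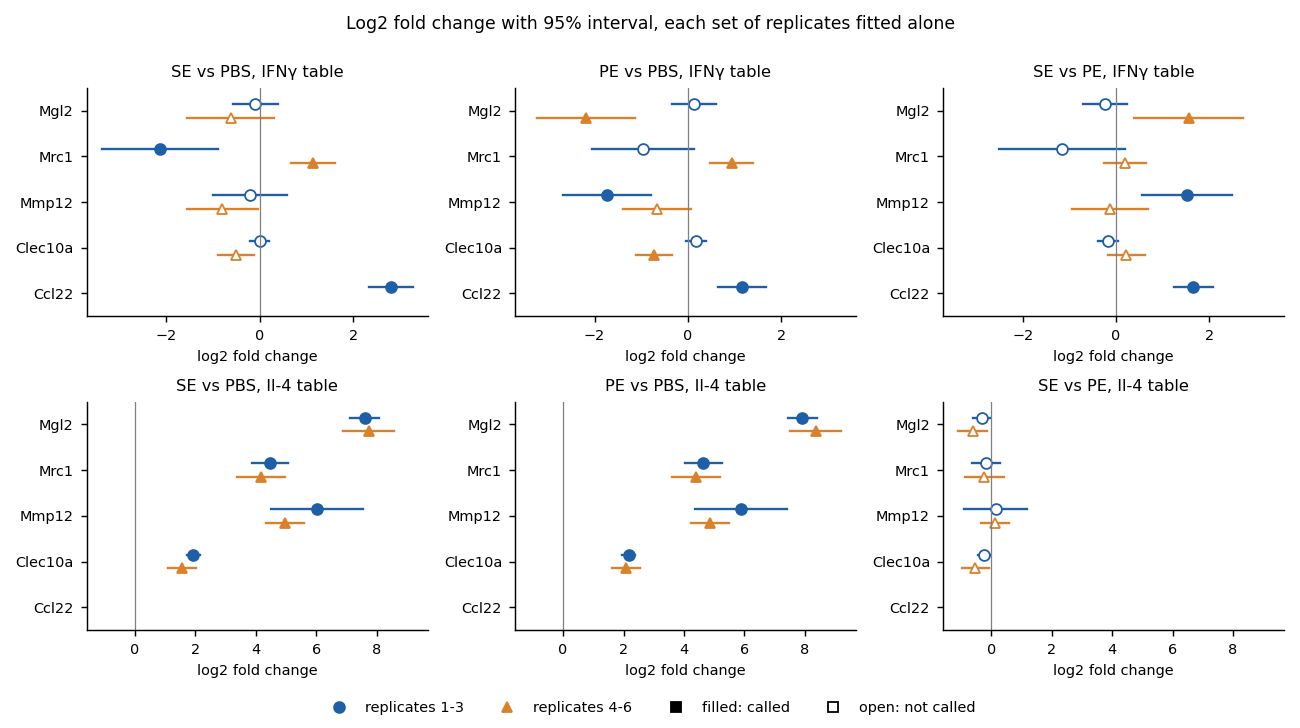
Log2 fold change with its 95% interval for 5 members, by contrast (columns) and table (rows), with replicates 1–3 (circles) and 4–6 (triangles) fitted alone. Filled marks were called and open marks were not. In the Il-4 table each tested member sits right of 0 against PBS in both sets, and in the IFNγ table Mrc1 against PBS lies at -2.14 for SE in 1–3 and at 1.14 in 4–6.

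In the Il-4 series the 3 chemokines and the 2 secreted markers stayed at the edge of detection, and all of them but Ccl22 did so in the IFNγ series. Retnla had 0 counts in all 18 libraries of the Il-4 series and 1 count in 1 library of the IFNγ series. Ccl17 likewise had 0 counts in all Il-4 libraries and 1 count in 1 IFNγ library. Chil3 reached at most 1 count in any library, with 5 counts in all over the Il-4 series. These 3 members were at or under 3 counts in all 36 libraries, which is at or under 0.173 CPM, and expression below that level was not detectable here.

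Ccl24, the eosinophil chemokine eotaxin 2, was at or under 1 count in every IFNγ library. In the Il-4 series it was above 3 counts in 2 libraries, SE replicate 1 with 5 counts and PE replicate 1 with 7. Ccl22, the Ccr4 ligand that lies 58.8 kb from Ccl17 on chromosome 8, had 4, 1, 3, 3, 1 and 1 counts in the PBS libraries of the Il-4 series. With SE it had 10, 2, 12, 8, 4 and 0 counts, and with PE 6, 5, 0, 1, 1 and 1. The groups overlapped, and the ratio of summed counts to PBS was 3.06 (95% counting interval 1.33 to 7.88) for SE and 1.41 (0.518 to 4.05) for PE in replicates 1–3. Replicates 4–6 gave 1.97 (0.647 to 7.15) and 0.447 (0.0694 to 2.30). These intervals cover counting error only, and PBS held 8 and 5 reads.

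**Figure D3:**
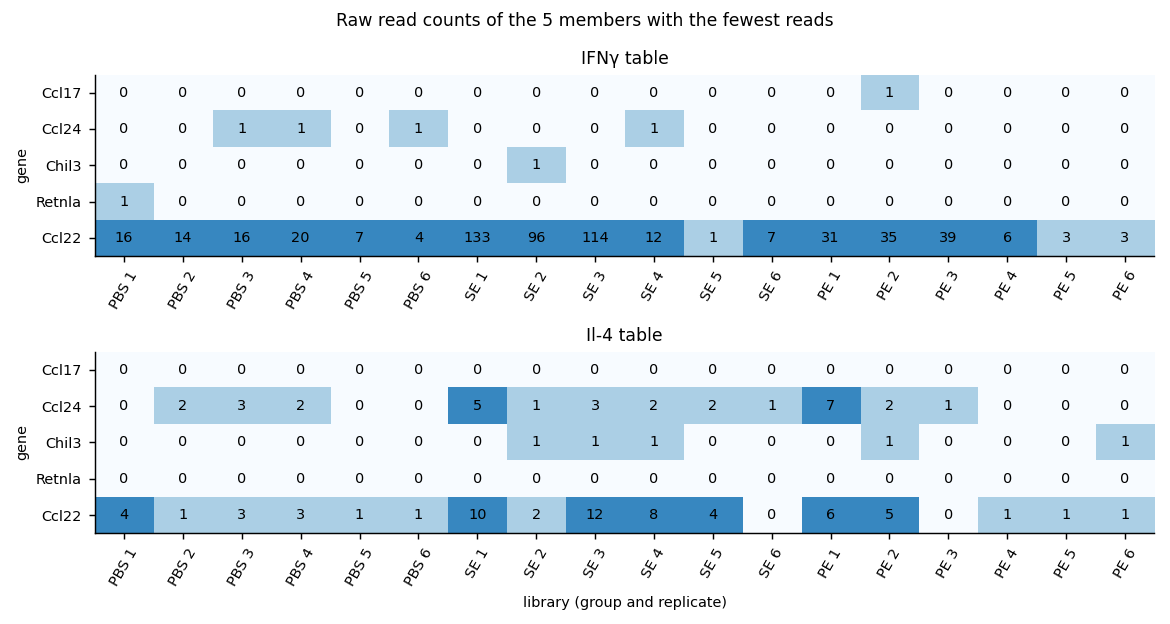
Raw read counts of the 5 members with the fewest reads (rows) in each of 18 libraries (columns) of the IFNγ table and the Il-4 table. The darkest cells hold more than 3 counts, pale cells 1 to 3 and the lightest 0. Outside Ccl22, the cells over 3 counts are Ccl24 in SE replicate 1 and PE replicate 1 of the Il-4 table.

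Among 29 other alternative activation genes listed in the tables, 6 were at or under 3 counts in every library of both series: Chil4, Retnlg, Cdh1, Cd163, Cd209a and Ear2. Chil4 (Ym2) is a near copy of Chil3 at 33.9 kb, and reads shared between the pair would not have been counted for either. Fn1 and F13a1 were at or under the floor in every Il-4 library. Arg1, which makes ornithine from arginine, did come up. Its PBS means in the Il-4 series were 0.0123 ± 0.0213 CPM in replicates 1–3 and 0.0498 ± 0.0863 CPM in 4–6, at or under 3 counts in each library. With SE they were 6.04 ± 2.02 and 7.21 ± 1.80 CPM, and with PE 7.53 ± 3.37 and 5.09 ± 1.98 CPM (n = 3 each). Arg1 was called in both sets for both peptides, with adjusted p from 5.52e-05 to 0.000895 by edgeR.

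The pathway around the members moved in part. In replicates 1–3, 10 of the 18 other alternative activation genes tested were higher with SE and 8 with PE, and none was lower, where 3.07% and 2.31% of all genes were higher. In the set 4–6, 7 of 17 were higher with SE and 6 of 17 with PE, where 0.779% and 1.06% of all genes were, and Il1rn, the Il-1 receptor antagonist, was lower with PE (-0.59). The list's median log2 fold change was 1.18 and 0.83 in 1–3 and 1.26 and 0.46 in 4–6, where that of all genes lay within 0.02 of 0. Called in both sets and for both peptides were Slc7a2, Arg1, Il4i1, Flt1, Igf1 and Cd36. Slc7a2 and Arg1 passed the low count filter by their peptide libraries alone, so the counts of higher genes in this list are a description. Il4i1, a secreted amino acid oxidase, gave log2 values of 5.43 and 5.37 in 1–3 and 3.20 and 3.49 in 4–6 for SE and PE. Igf1, a growth factor, went from 48.8 ± 28.0 CPM in PBS to 402.6 ± 140.0 with SE and 552 ± 123 CPM with PE in 1–3. Msr1 and Stab1, which are scavenger receptors, were not called in either set. None of the list was called between SE and PE.

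**Figure D4:**
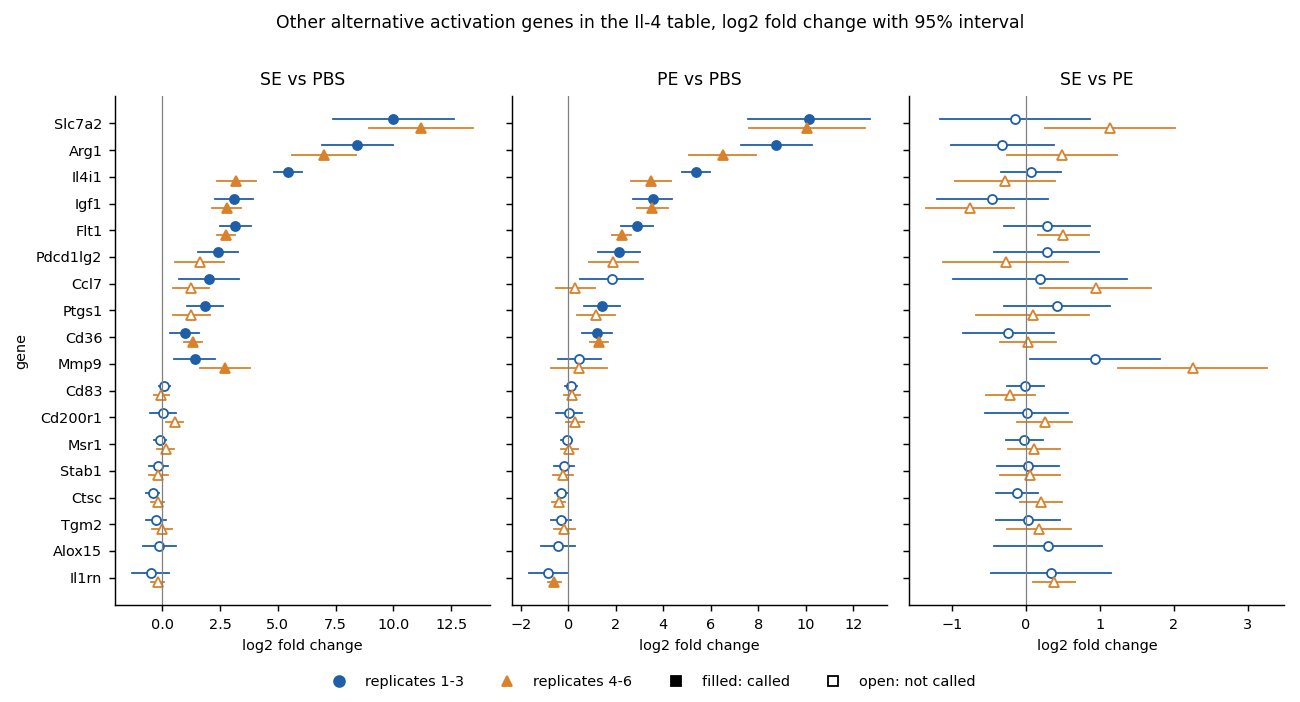
Log2 fold change with its 95% interval of the other alternative activation genes tested in the Il-4 table, by contrast, with replicates 1–3 as circles and 4–6 as triangles. Filled marks were called. Slc7a2 was at 0 in every PBS library and Arg1 at or under 3 counts, so their fitted values depend on the prior count and are no bound.

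Of 25 genes of the Il-4 receptor, its signalling and its factors, 23 were tested in each set, and Irs2, an adaptor of the receptor, was at or under 3 counts in all 36 libraries. In replicates 1–3, 4 were higher and 3 lower with SE and 5 higher and 2 lower with PE, where 3.07% and 2.31% of all genes were higher and 3.37% and 1.64% lower. The set 4–6 gave 2 and 0 with SE and 3 and 2 with PE, where 0.779% and 1.06% were higher and 0.267% and 1.18% lower. Cish, a feedback inhibitor of Stat signalling, rose in both sets for both peptides, from at most 0.0996 CPM in PBS to at least 3.46 CPM. It passed the low count filter by its peptide libraries alone. Egr2, a factor that follows Stat6, also rose in all 4 contrasts, by log2 values of 1.59 to 2.29. Socs1, another feedback inhibitor, was called in replicates 1–3 (2.47 with SE and 2.45 with PE), as was the factor Batf3 (2.78 and 2.22), and neither was called in 4–6. Irf4, a factor of alternative activation, was called with PE in both sets (1.04 and 1.73) and with SE in neither (0.82 and 1.30). No gene of this list, Irf4 included, was called between SE and PE. Il4ra, the receptor chain for Il-4, was lower with SE in 1–3 (-0.90). The demethylase Kdm6b was lower in 1–3 with SE (-0.64) and with PE (-0.62) and in 4–6 with PE (-0.88), and Ppard in 4–6 with PE (-1.10). Il13ra1, a chain of the receptor for Il-13, was lower in replicates 1–3 by a log2 value of -1.14 with SE and -0.93 with PE. Stat6 itself was not called, with log2 values from -0.18 to -0.07.

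The receptors for the chemokine members and the partners of Mmp12 were mostly near 0. Ccr4, the receptor of Ccl17 and Ccl22, and Ackr2, a decoy that takes up chemokines, were at or under 3 counts in all 36 libraries, as was Elane. Ccr3, the receptor of Ccl24, reached 5 counts in the Il-4 series and 3 in the IFNγ series. Timp2, an inhibitor of metalloproteases, passed the filter and was higher in replicates 1–3 by log2 values of 1.37 with SE and 1.53 with PE. Its call in 4–6 was with PE (1.44) and not with SE (1.06, adjusted p = 0.142 by edgeR). Plau, the urokinase, was lower in 4–6 with PE (-1.07). Neither Timp2 nor Plau was called between SE and PE.

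The IFNγ series gave a different picture: the members stayed low, and the sets of replicates did not move together. Clec10a, the highest, ran from 15.1 to 18.7 CPM in PBS replicates 1–3, 15.2 to 17.3 with SE and 17.4 to 19.5 with PE. The values in 4–6 were 13.8, 17.6 and 10.8 CPM in PBS, 10.9, 9.07 and 9.30 with SE, and 6.89, 10.05 and 8.21 with PE. It was called lower only in 4–6 for PE against PBS (log2 -0.73, SE 0.18, adjusted p = 0.00958 by edgeR), and that call ended without replicate 4 (adjusted p = 0.0908).

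Ccl22 and Mmp12 were the members called between SE and PE under IFNγ in replicates 1–3. Ccl22 had 16, 14 and 16 counts in PBS, 133, 96 and 114 with SE, and 31, 35 and 39 with PE, or 0.456 ± 0.0378, 3.15 ± 0.460 and 0.989 ± 0.103 CPM (n = 3 each). No 2 of these groups overlapped. The log2 fold change was 2.81 (SE 0.22, adjusted p = 1.26e-07) for SE against PBS, 1.15 (SE 0.24, adjusted p = 0.00140) for PE against PBS and 1.66 (SE 0.19, adjusted p = 4.95e-05) for SE against PE, by edgeR. In 4–6 the counts were 20, 7 and 4 in PBS, 12, 1 and 7 in the libraries labelled SE and 6, 3 and 3 with PE, and Ccl22 did not pass the filter. Over all replicates it was called for SE against PBS (1.84, adjusted p = 0.0207) and SE against PE (1.52, adjusted p = 0.0249). Those calls ended without replicate 1, 2 or 3, with adjusted p up to 0.186 and 0.101.

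Mrc1 had fold changes against PBS of opposite sign in the sets, called in both for SE only. The SE libraries of 4–6 are those that went against their label. In replicates 1–3 it had 65, 21 and 17 counts in PBS, 12, 4 and 8 with SE, and 11, 32 and 10 with PE. In 4–6 it had 63, 43 and 58 counts in PBS, 58, 53 and 98 in the libraries labelled SE, and 74, 79 and 92 with PE. In CPM the means fell from 0.994 ± 0.716 to 0.219 ± 0.108 with SE in 1–3 and stood at 1.40 ± 0.282, 3.01 ± 0.288 and 2.66 ± 0.387 in PBS, SE and PE of 4–6. SE against PBS gave -2.14 on the log2 scale (SE 0.58, adjusted p = 0.00703) in 1–3 and 1.14 (SE 0.21, adjusted p = 0.0376) in 4–6, by edgeR. The last call ended without any one of replicates 4, 5 and 6. PE against PBS gave -0.97 (SE 0.51, adjusted p = 0.133) in 1–3 and 0.94 (SE 0.21, adjusted p = 0.00626) in 4–6, the latter ending without replicate 4 (0.123). Without replicate 1, which held the PBS library of 65 counts, the value in 1–3 was 0.016 (adjusted p = 0.984, edgeR).

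Mmp12 was lowest with PE in replicates 1–3. It had 13, 28 and 31 counts in PBS, 24, 18 and 24 with SE, and 8, 4 and 10 with PE, and the PE libraries lay below all others. The log2 fold change was -1.74 (SE 0.44, adjusted p = 0.00512) for PE against PBS, and 1.52 (SE 0.44, adjusted p = 0.0240) for SE against PE, by edgeR. Without replicate 2 these gave adjusted p of 0.0831 and 0.128, and without replicate 3 the second gave 0.0878. In 4–6 PE against PBS was -0.67 (SE 0.34, adjusted p = 0.178). Over all replicates it was -1.06 (SE 0.32, adjusted p = 0.0181), a call that ended without replicate 2, 3 or 5.

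Mgl2, the gene with the widest step in the Il-4 series, was between 1.17 and 1.84 CPM in every library of replicates 1–3 under IFNγ, with overlapping groups. In 4–6 it had 35, 17 and 38 counts in PBS, 9, 7 and 17 in the libraries labelled SE, and 6, 1 and 8 with PE. The log2 fold change in 4–6 was -2.18 (SE 0.48, adjusted p = 0.00578) for PE against PBS and 1.55 (SE 0.53, adjusted p = 0.0433) for SE against PE, by edgeR. Without replicate 5 the first had an adjusted p of 0.0501, and the second ended without any one of the 3 replicates, with adjusted p from 0.0873 to 0.162.

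In all, the IFNγ series called 1 of the 5 members tested in each contrast over all replicates, Ccl22 higher for SE against PBS and against PE and Mmp12 lower for PE against PBS. Of all 15949 genes, 3.57%, 3.19% and 13% were called in those contrasts. In replicates 1–3, 2 members were called in each contrast, where 22.8% (SE against PBS), 19.8% (PE against PBS) and 6.08% (SE against PE) of all genes were. In 4–6, of 4 tested, 1 was called for SE against PBS, 3 for PE against PBS and 1 for SE against PE, where 0.72%, 10.8% and 13.8% of all genes were. The contrasts share their PBS or peptide libraries.

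Other alternative activation genes were also called under IFNγ, where a gene could again pass the low count filter by its peptide libraries alone. In replicates 1–3, 11 of 17 tested were higher and 2 lower with SE, 6 higher and 5 lower with PE, and 10 higher and 1 lower in SE against PE, where 22.8%, 19.8% and 6.08% of all genes were called in either direction. In 4–6, of 15 tested, 2 were higher and 1 lower with the libraries labelled SE, 6 higher and 2 lower with PE, and 3 higher and 5 lower in SE against PE, where 0.72%, 10.8% and 13.8% of all genes were called. The chemokine Ccl7 led with PE in 4–6 (2.88) and was at 5.11 with SE and 3.74 with PE in 1–3. Ptgs1 (cyclooxygenase 1) was lower by log2 values of -3.16 with SE and -3.20 with PE in 1–3, and -3.13 with PE in 4–6. Mmp9, a gelatinase, was lower with PE by -2.15 in 1–3 and -3.02 in 4–6. Of the Il-4 signalling genes, 12 of 22 were higher with SE and none lower in 1–3, and 7 were higher and 4 lower with PE. In 4–6, of 21 tested, 0 were called with the libraries labelled SE, and 6 were higher and 1 lower with PE. Il4ra was higher in 1–3 with SE (1.50) and PE (1.31), and in 4–6 with PE (1.60).

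The sets differed by test for 7 of the 15 pairs of member and contrast in the IFNγ series. For SE against PBS these were Mrc1 (4–6 minus 1–3, log2 3.30, SE 0.62) and Ccl22 (-2.55, SE 0.65), where 37.6% of all genes differed. For PE against PBS they were Mrc1 (1.95, SE 0.57), Mgl2 (-2.28, SE 0.49) and Clec10a (-0.86, SE 0.21), where 12.4% did. For SE against PE they were Mmp12 (-1.66, SE 0.60) and Mgl2 (1.78, SE 0.53), where 30.6% did. The SE contrasts rest on the libraries that went against their label, and the PE against PBS contrast does not.

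The contrasts were also set against each other across the series, in 1 model of all 36 libraries. Il-4 minus IFNγ was 7.999 (SE 0.40) for Mgl2, 6.11 (SE 0.55) for Mmp12, 4.39 (SE 0.50) for Mrc1 and 2.06 (SE 0.20) for Clec10a in SE against PBS. In PE against PBS it was 8.63 (SE 0.40), 6.47 (SE 0.55), 4.47 (SE 0.50) and 2.44 (SE 0.20). The adjusted p were at most 5.51e-07 by edgeR, where 6.42% and 22.3% of all genes passed 0.05. With replicates 1–3 alone the 4 members gave 7.73, 6.27, 6.64 and 1.97 for SE, and 7.80, 7.62, 5.64 and 2.01 for PE, where 33.6% and 24.4% of all genes passed. Ccl22 gave -0.40 (SE 0.95) and -0.28 (SE 0.96), with adjusted p of 0.867 and 0.882. For SE against PE no member passed the test of a difference between the series (adjusted p from 0.279 to 0.989), where 4.03% of all genes did, nor with replicates 1–3 alone, where 6.83% did.

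The genes with the most similar pattern over the 18 Il-4 libraries were found by Pearson's r of log2 CPM, centred within each set of replicates, among 9735 genes with a mean of at least 5 CPM. Those nearest to Mgl2 were Lipn (0.989), Mrc1 (0.988) and Clec10a (0.966). Mrc1 had Mgl2, Lipn (0.983) and Clec10a (0.970), and Clec10a had Mrc1, Anxa6 (0.966) and Mgl2. Mmp12 was nearest to other genes: Rnf19b (0.977), Itgax (0.977), which encodes the integrin CD11c, and Oit3 (0.974). These values describe libraries that share the step from PBS to peptide. In the IFNγ series the same measure gave 0.807 to 0.929 for the nearest gene of each of 5 members. There all members but Clec10a had at most 133 counts in a library and a mean under 5 CPM. They could therefore not be listed as a nearest gene, and whether members resembled each other was not asked by this ranking.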

How the data were processed

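The study describes stranded mRNA libraries of RAW264.7 cells, sequenced as single-end reads. In each series the later set of replicates had higher histone sums and a lower protein-coding share than the earlier set, as given above. Whether poly(A) selection was alike in both sets was not tested. The authors used featureCounts with GENCODE annotation of GRCm38.p5 on uniquely aligned reads. The deposited values are raw counts for 49568 gene names, in 1 table per series. The aligner and the strand option are not given in the sources used here. The submitters' processing notes name DESeq2 1.16.1 and R 3.4.1. Other genes overlapping a member had at most 2 counts in any library. Members and gene lists were chosen with earlier results of these data known.

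Counts were analysed in R 4.3.3 with edgeR 4.0.16 (TMM, filterByExpr, glmQLFit and glmQLFTest) over the whole table. Over all replicates, 15949 (IFNγ) and 13494 (Il-4) genes were tested. Fits over all replicates had the label set (replicates 1–3 or 4–6) as a term, and each set was also fitted alone. Calls needed a fold change over 1.5 and an adjusted p (Benjamini-Hochberg) under 0.05. The test was tried on simulated data first. Alternatives were RLE factors, DESeq2 1.42.0, other count filters, protein-coding genes alone, a replicate block, no label set term and leaving out each replicate. Leaving out replicates in the comparison across series was chosen after seeing the data. Positions and exon lengths came from GENCODE M21 (GRCm38) by symbol. The study gives 6 biological replicates from 2 independent experiments. Named genes were the members, the 3 with the highest r per member, and in the other lists those at the floor throughout and the called genes with the 3 highest and 3 lowest changes. Not all of these are printed, and Cd36, Flt1, Igf1, Msr1, Stab1, Stat6 and Timp2 were added after their values were seen.

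Whether the labels' replicate numbers pair the libraries was checked by the correlation of deviations from the group means between same-numbered libraries. All 3 pairs were over 0.1 for SE and PE in Il-4 replicates 1–3 (0.140 to 0.398) and for PBS and PE in Il-4 replicates 4–6 (0.172 to 0.423), where the numbers were taken to pair them. In each other comparison at least 1 pair was not. For SE and PE in Il-4 replicates 1–3, libraries of different number also reached 0.157 (SE 2 with PE 3) and 0.102 (SE 3 with PE 2). Replicates 2 and 3 were therefore not told apart by this check there.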

Additional observations from a re-analysis of the deposited data

Results flagged for a closer look

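In 4 of 32 groups of 6 libraries 1 library stood far from the others, where chance gives about 1 in 20 groups. These were Mmp12 in SE replicate 4 of the IFNγ series (1.57 CPM) and, in PE replicate 1 of the Il-4 series, Mrc1 (53.0 CPM), Mmp12 (75.6 CPM) and Ccl24 (0.264 CPM, from 7 counts). All but the first came from the same library. Genes share libraries, so the groups are not the separate draws that the chance rate takes them to be.

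The sets of replicates differed in the IFNγ series by the test of the difference (4–6 minus 1–3, log2): Mrc1 by 3.30 and Ccl22 by -2.55 for SE against PBS, Mrc1 by 1.95, Mgl2 by -2.28 and Clec10a by -0.86 for PE against PBS, and Mmp12 by -1.66 and Mgl2 by 1.78 for SE against PE. The libraries labelled SE replicates 4–6 enter the SE contrasts, and their part in these was not tested beyond the values of replicates 1–3 alone.

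The series differed by the test of the difference (Il-4 minus IFNγ, log2). For SE against PBS it was 4.39 for Mrc1, 6.11 for Mmp12, 7.999 for Mgl2 and 2.06 for Clec10a. For PE against PBS it was 4.47, 6.47, 8.63 and 2.44 in the same order.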

How the results depend on the processing

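Outside the fits that left out a replicate, the members' log2 fold changes kept their direction and their side of the threshold in 439 of 454 cases, 10 turned sign, 3 lost and 2 gained a call. Left-out replicates kept 271 of 315, turned 16, ended 26 and gained 2.

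With at least 10 counts in every library, members called fell in the IFNγ series to 0 in each contrast over all replicates, to 1 in each contrast of replicates 1–3 and to 0 for SE against PE in 4–6, and in the Il-4 series to 2 in every contrast with PBS, because low members leave the test. Without the label set term the IFNγ series called 0 members over all replicates. In these fits Mrc1 turned to 0.42 (SE against PBS), 0.39 (PE against PBS) and 0.026 (SE against PE) and Clec10a to -0.035 (SE against PE). The cause was not tested. Values near 0 also turned for Clec10a: -0.00185 with no filter for SE against PE, and in replicates 1–3 for SE against PBS 0.00245 with RLE factors, 0.00246 with DESeq2, 0.00473 with the 10 count filter and 0.00515 with protein-coding genes. With no filter, Mrc1 in IFNγ replicates 1–3 gained calls for PE against PBS (adjusted p = 0.0213) and SE against PE (0.0397).

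The replicate block gave the same number of members called in every comparison (for SE against PBS, PE against PBS and SE against PE, 4, 4 and 0 in the Il-4 series and 1, 1 and 1 in the IFNγ series over all replicates). It turned Mrc1 to 0.020 for PE against PBS there. The numbers were taken to pair the libraries for PE against PBS in Il-4 replicates 4–6, where the block gave 4 calls as well. They were also taken to do so for SE against PE in Il-4 replicates 1–3, though the check did not tell replicates 2 and 3 apart. There the block gave 0 calls, with log2 values of -0.32 for Mgl2, -0.23 for Clec10a, -0.19 for Mrc1 and 0.41 for Mmp12. Their adjusted p ran from 0.474 to 0.608 by edgeR. Elsewhere the libraries share only a number.

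Leaving out each replicate in turn, members called ranged from 0 to 1 in each IFNγ contrast over all replicates and from 1 to 2 for SE against PE in 1–3. In 4–6 they were 0 for SE against PBS and SE against PE and 1 to 3 for PE against PBS. In the Il-4 series they ranged from 0 to 1 for SE against PE in 1–3 and from 2 to 4 for both PBS contrasts in 4–6. Differences between sets ranged from 4 to 7 in the IFNγ series and 0 to 1 in the Il-4 series. Log2 fold changes that turned sign had these ranges. Over all IFNγ replicates, Mrc1 ran from -0.60 to 0.38 (SE against PBS), -0.35 to 0.61 (PE against PBS) and -0.41 to 0.10 (SE against PE), and Clec10a from -0.11 to 0.086 (SE against PE). In IFNγ replicates 1–3 with SE against PBS, Mmp12 ran from -0.61 to 0.017, Mgl2 from -0.29 to 0.036 and Clec10a from -0.12 to 0.14, and with PE against PBS Mrc1 from -1.90 to 0.016 and Mgl2 from -0.022 to 0.36. For SE against PE, Mmp12 ran from -0.48 to 0.057 in IFNγ 4–6 and -0.10 to 0.87 in Il-4 1–3, and Mrc1 from -0.47 to 0.040 in Il-4 4–6. None of these was called with all replicates.

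Depth limits the members at or under 3 counts, for which a level under 0.0542 to 0.173 CPM, depending on the library, could not be seen, and the fold of Mgl2, whose PBS libraries held at most 10 counts in the Il-4 series.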
